A study of Mus musculus with 24 samples.

Results

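The genes described here encode 37 proteins of blood clotting, fibrinolysis and complement that the liver makes and secretes. They were taken from a fixed list of symbols, with the condition of a mean of at least 1 CPM (counts scaled to a common library size) over the 24 libraries. All 37 listed genes met it, of 22355 genes in the table, and all 37 were among the 11508 genes tested. Of the 37, 19 belong to clotting and fibrinolysis and 18 to complement. The RNA came from livers of diet-induced obese mice, 8 in each of 3 groups. The IUB288 22 h group had been given IUB288 for 4 d and was sampled 22 h after its last injection. The IUB288 4 h group had the same 4 d of IUB288 and was sampled 4 h after its last injection. The vehicle group was injected with vehicle over 4 d and was sampled 22 h after its last injection. IUB288, known by its code name, activates the glucagon receptor, and all 3 groups shared the obesity brought on by diet. The labels give neither strain, sex nor age. No vehicle group was sampled at 4 h, so the time since injection and the treatment cannot be told apart in the comparison of IUB288 4 h with vehicle.

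Clotting proteins circulate as inactive precursors. Tissue factor and factor VII start the cascade, thrombin cuts fibrinogen into fibrin, factor XIII crosslinks it, and plasmin dissolves it, while serpins such as antithrombin and antiplasmin hold these proteases in check. Complement is a second cascade of plasma proteases, which lectins, antibodies or spontaneous turnover of C3 set off, and which ends in a pore built from C5 to C9. Hepatocytes make most of these proteins, liver sinusoidal endothelial cells make factor VIII, and several of the genes respond to interleukin 6 through STAT3 and C/EBP factors in the acute phase response.

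Library totals ran from 25.8 to 35.2 M counts in the IUB288 22 h group, from 24.7 to 35.2 M in the IUB288 4 h group and from 13.99 to 44.1 M in the vehicle group, and the lowest count of any of the 37 genes in any library was 77. All 8 hepatocyte markers listed, Alb among them, were detected in every library and summed to 6.2% to 11.6% of counts. The median sum was 7.82% at 22 h, 8.87% at 4 h and 10.1% in vehicle. Of these 8 markers, 4 were higher and 3 lower than in vehicle at each time. In 3 livers, replicate 8 of the IUB288 4 h group and replicates 2 and 7 of the vehicle group, 5 mitochondrial genes (ATP6, ATP8, COX2, COX3 and ND4L) summed to 9967 to 16540 CPM, against 138.1 to 2716 CPM in the other 21. The same 3 livers were the highest of all in C2, C4b and Cfb. Vehicle replicate 1 held Ucp1, a brown fat gene, at 1388 CPM, against at most 0.576 CPM elsewhere, and it was the lowest vehicle liver for 26 of the 37 genes. Calls that were lost or gained without these 3 or all 4 livers, and called values that moved by over 1.5 times, are given below with and without them. Endothelial, Kupffer and stellate cell markers were lower in IUB288 livers: at 22 h 10 of 10, 7 of 11 and 9 of 10 tested markers fell, and at 4 h 5 of 10, 3 of 11 and 7 of 10, with none higher. Cholangiocyte markers fell for 2 of 6 and T, NK and B cell markers for 4 of 11 at each time, with none higher. Of 5 erythroid markers tested, 4 fell and 1 rose at each time. In bulk tissue, fewer cells of a type and less RNA per cell cannot be told apart.

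Against vehicle, 20 of the 37 genes changed 22 h after the last IUB288 injection, 15 higher and 5 lower, where 36.8% of all genes tested changed, 17.6% higher and 19.2% lower. Changed means an adjusted p under 0.05 in limma-voom with Benjamini-Hochberg adjustment over all genes tested. Thus 40.5% of the 37 genes were higher and 13.5% lower. At 4 h, 19 of the 37 changed, 12 higher and 7 lower, where 44.2% of all genes changed, 21.7% higher and 22.5% lower. Between the 2 IUB288 groups 8 genes differed, 7 higher at 22 h and 1 lower, where 29.3% of all genes differed, 14.3% higher and 15% lower. The median log2 fold change of the 37 was 0.138 at 22 h, beside -0.019 over all genes tested, 0.029 at 4 h, beside -0.073, and 0.104 for 22 h over 4 h, beside -0.016. The 4 h median did not keep its sign: it was -0.018 without vehicle replicate 1, beside -0.049 over all genes, and -0.073 without the 4 livers above, beside -0.04. It was -0.004 without the 3 livers high in mitochondrial genes, beside -0.071, -0.023 with column totals, beside -0.125, and -0.062 with library quality weights, beside -0.05. It was -0.065 in replicates 5 to 8 alone, beside -0.049. With column totals in place of TMM scaling, the split at 4 h was 11 higher and 10 lower. The share of all genes called in that fit is not given here, so this split is not read as particular to the 37 genes. The 22 h and 4 h comparisons share 1 set of 8 vehicle livers.

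Clotting and fibrinolysis genes were more often higher than lower at 22 h, 10 against 2 of 19, and at 4 h the split was 7 against 3. Complement genes split 5 against 3 of 18 at 22 h and 5 against 4 at 4 h. Complete separation of the 8 treated livers from the 8 vehicle livers was seen for 9 of the 37 genes at 22 h, where 7.41% of all genes separated, and for 8 at 4 h, where 16.1% did. Between the IUB288 groups 2 of the 37, Fgb and Serpinf2, separated, where 10.7% of all genes did.

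**Figure D1:**
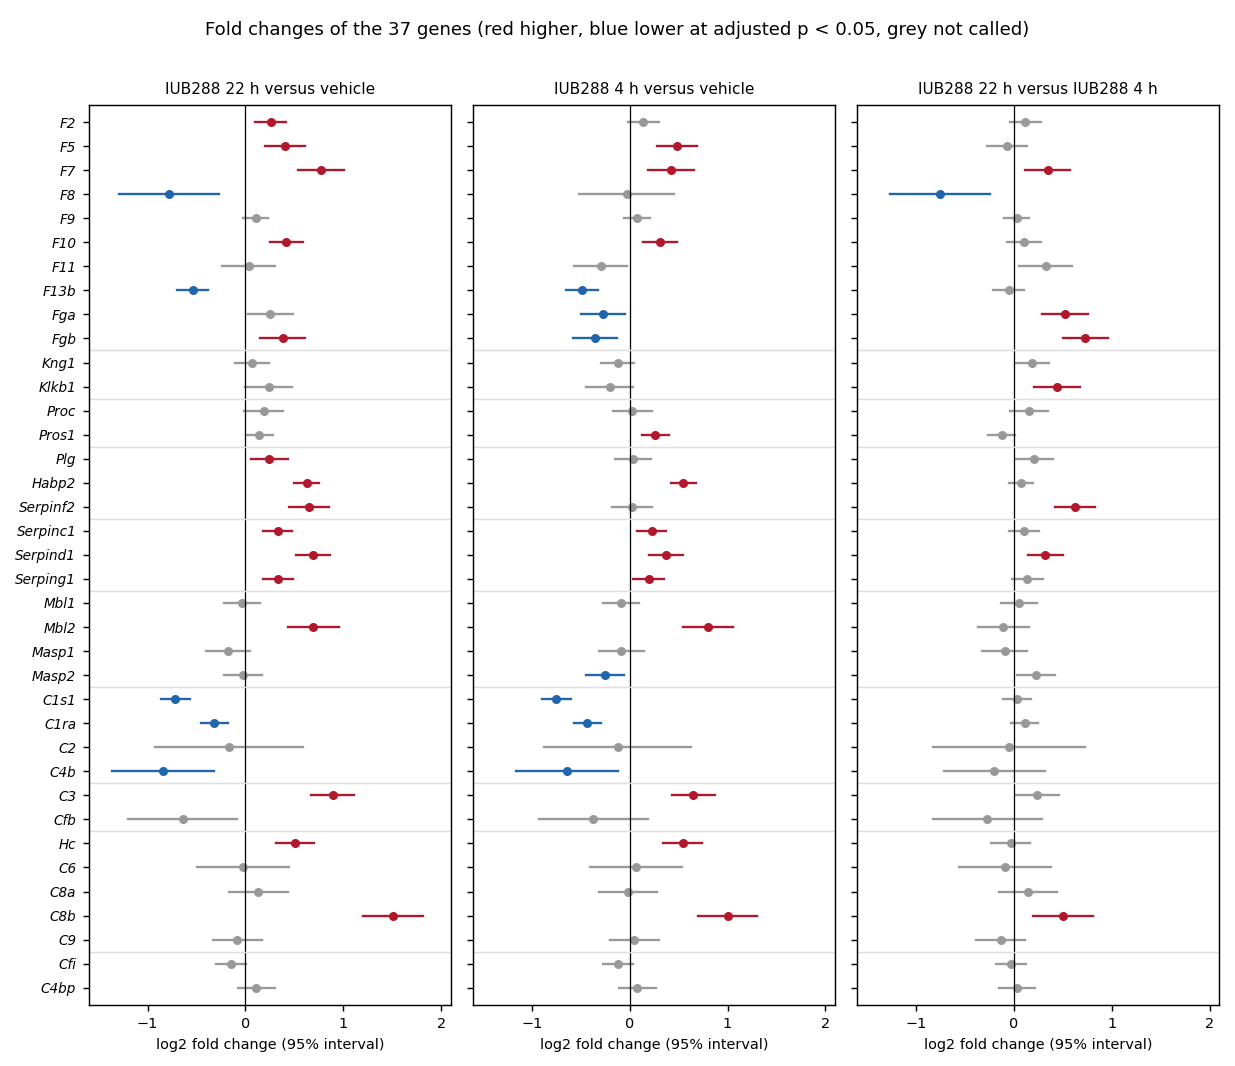
Fold changes of the 37 genes on a log2 scale in 3 comparisons, 22 h over vehicle, 4 h over vehicle and 22 h over 4 h, with 95% confidence intervals from limma-voom; red is higher and blue lower at an adjusted p under 0.05, grey is not called, and faint lines separate roles from clotting factors (top) to complement regulators (bottom). C8b stands farthest to the right in both comparisons with vehicle, at 1.50 and 1.00, and C1s1, C1ra, C4b and F13b lie to the left in both.

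Together the 37 genes had the highest median share of counts at 22 h. Their summed level was 3.9%, 4.51% and 5.37% of TMM-scaled counts (lowest, median and highest liver) at 22 h, 3.54%, 3.86% and 4.19% at 4 h, and 2.59%, 3.45% and 4.03% in vehicle livers, so the ranges overlapped. Without C3 the medians were 3.21% at 22 h, 2.72% at 4 h and 2.73% in vehicle. Per kb of transcript, the highest mean levels at 22 h were those of C3 at 2584 and Fga at 2122 CPM per kb. At 4 h C3 also led, at 2173 against 1459 for Fga, whereas in vehicle Fga led at 1768 against 1409 for C3. F8 and C2 had the lowest levels per kb in all 3 groups, at most 5.64 and 3.10 CPM per kb.

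**Figure D2:**
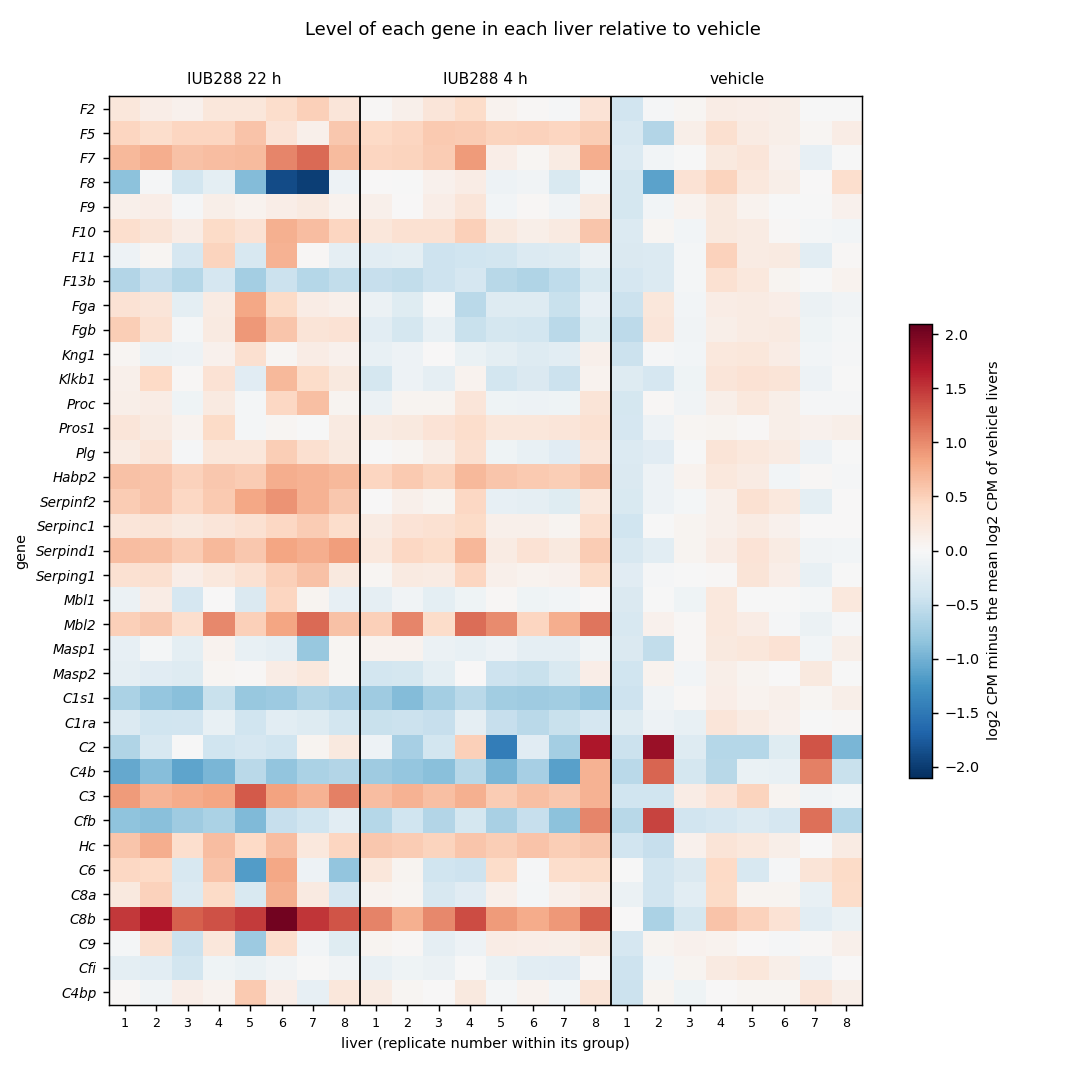
Each row is 1 of the 37 genes and each column 1 liver, 8 for each of IUB288 22 h, IUB288 4 h and vehicle; colour is log2 CPM minus the mean log2 CPM of the 8 vehicle livers, red above and blue below. C8b, C3, Mbl2, Habp2 and Serpind1 are red across treated livers and C1s1 is blue, C2, C4b and Cfb are red in IUB288 4 h replicate 8 and vehicle replicates 2 and 7, and F8 is darkest blue in IUB288 22 h replicates 6 and 7.

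Fibrinogen is a hexamer of alpha, beta and gamma chains, and the genes of the alpha chain, Fga, and the beta chain, Fgb, were measured here. They lie 8.62 kb apart on chromosome 3 and point towards each other. Their promoters are shown because the levels of these neighbours moved together from liver to liver. Each window runs from 250 bases before to 50 after a RefSeq transcript start in GRCm38.p6: Fga at chr3:83025903-83026202 on the + strand, and Fgb at chr3:83049814-83050113 on the - strand. Capitals mark, on either strand, TTNCNNAA (the C/EBP motif), TTCNNNGAA (the STAT3 motif) and CTGGGAA (the interleukin 6 element).
Fga: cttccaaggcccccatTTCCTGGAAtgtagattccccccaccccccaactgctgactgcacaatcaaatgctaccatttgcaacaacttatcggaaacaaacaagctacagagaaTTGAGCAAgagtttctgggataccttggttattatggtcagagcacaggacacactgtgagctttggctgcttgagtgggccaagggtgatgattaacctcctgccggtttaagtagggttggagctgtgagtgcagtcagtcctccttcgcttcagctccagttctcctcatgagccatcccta
Fgb: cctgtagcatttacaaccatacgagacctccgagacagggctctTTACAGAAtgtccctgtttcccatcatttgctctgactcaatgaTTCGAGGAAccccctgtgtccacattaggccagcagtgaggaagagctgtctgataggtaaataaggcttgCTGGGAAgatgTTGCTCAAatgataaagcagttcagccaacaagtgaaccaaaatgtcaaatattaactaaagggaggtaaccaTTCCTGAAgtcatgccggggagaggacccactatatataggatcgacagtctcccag
Fga held 1 C/EBP and 1 STAT3 match, and Fgb held 3 C/EBP, 1 STAT3 and 1 interleukin 6 element match. Of 32817 RefSeq promoters of this length, 40.7% held the C/EBP, 8.29% the STAT3 and 11.1% the interleukin 6 motif, and no matches overlapped in these windows. A match describes letters only.

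Levels are given from here on as TMM-scaled CPM, and 3 values in a row are the lowest, median and highest of 8 livers. Fgb stood at 3461, 4395 and 6637 CPM at 22 h, at 2398, 2736 and 3192 CPM at 4 h, and at 2436, 3654 and 4224 CPM in vehicle. All 8 livers of the IUB288 22 h group lay above all 8 of the IUB288 4 h group, and the vehicle livers overlapped both. Against vehicle, Fgb was higher at 22 h by 0.38 ± 0.111 on the log2 scale (limma-voom, adjusted p = 0.00936) and lower at 4 h, at -0.35 ± 0.109 (adjusted p = 0.0113; ± is the standard error of the model throughout). The level at 22 h was 1.66-fold that at 4 h, a log2 fold change of 0.73 ± 0.11 (adjusted p = 1.07e-05). Fga had 3936, 5252 and 7947 CPM at 22 h, 3056, 3770 and 4400 CPM at 4 h, and 3297, 4649 and 5359 CPM in vehicle. The 3 groups overlapped, and the 4 h group had the lowest median. Fga was 1.44-fold higher at 22 h than at 4 h (0.52 ± 0.112, adjusted p = 0.000709). Its 4 h fold change over vehicle, -0.27 ± 0.111, only just passed the test (adjusted p = 0.0497). That call was lost on leaving out any 1 of 16 libraries, with an adjusted p of up to 0.108 without IUB288 4 h replicate 4, and without the 3 livers high in mitochondrial genes (-0.27, adjusted p = 0.0963). These 16 were IUB288 22 h replicates 1, 2, 4 and 8, IUB288 4 h replicates 2 and 4 to 8, and vehicle replicates 2 to 6 and 8. At 22 h Fga had a fold change over vehicle of 0.25 ± 0.112 (adjusted p = 0.0804), which passed only without IUB288 22 h replicate 3 (0.32, adjusted p = 0.0244).

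Within each group the levels of Fga and Fgb went together over the 8 livers. Pearson's r between them was 0.97 at 22 h, 0.92 at 4 h and 0.99 in vehicle, with adjusted p of 0.00357, 0.0048 and 0.00357 in an exact permutation test. Spearman's rho was 0.90 in every group (adjusted p = 0.0186, exact permutation test), and r without the 2 livers farthest from the median of Fga was 0.87, 1.00 and 0.96. The p-values were adjusted over 18 relations, 6 pairs of neighbouring genes in 3 groups. Pairs of genes that are not neighbours were not tested. Many of the 37 genes shared their lowest or highest liver of a group. IUB288 22 h replicate 3 was lowest for 21 of them, and IUB288 4 h replicates 4 and 8 were highest for 17 and 14.

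**Figure D3:**
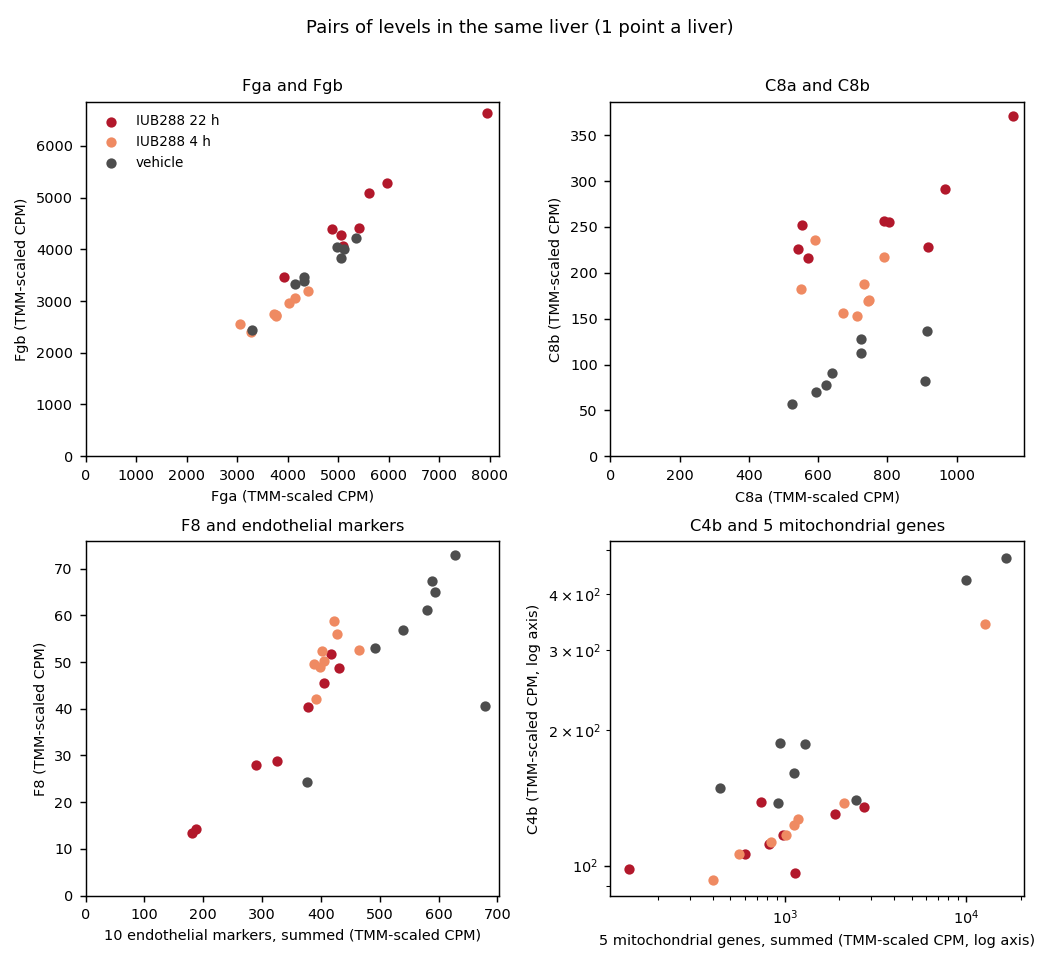
Levels of 2 genes or sums in the same liver, 1 point a liver, coloured by group, in TMM-scaled CPM; the panel of C4b against 5 summed mitochondrial genes has log axes and the other 3 are linear. Fga and Fgb lie on a line within each group, with IUB288 22 h livers at the upper end and IUB288 4 h livers towards the lower end. C8b is shifted upwards in treated livers at the same C8a, F8 is lowest in the 2 livers with the lowest endothelial sums, and 3 livers lie apart at the upper right in the C4b panel.

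Of the 5 protease precursors of clotting, F2, F7 and F10 rose at 22 h and F7 and F10 at 4 h. Prothrombin, F2, was higher at 22 h (0.26 ± 0.0763, adjusted p = 0.0105), and its 4 h fold change of 0.14 did not pass (adjusted p = 0.14). Without the 3 livers high in mitochondrial genes and vehicle replicate 1, the 22 h change of F2 was 0.17 and was not called (adjusted p = 0.0751). Factor VII, F7, the partner of tissue factor, had 78.88, 82.35 and 117.6 CPM at 22 h, 53.14, 70.91 and 96.32 CPM at 4 h, and 42.54, 51.2 and 61.72 CPM in vehicle. Every IUB288 22 h liver lay above every vehicle liver, and the IUB288 4 h livers overlapped both other groups. F7 was 0.77 ± 0.113 higher at 22 h (adjusted p = 1.08e-05) and 0.42 ± 0.114 higher at 4 h (adjusted p = 0.00377) on the log2 scale over vehicle. The 22 h level exceeded the 4 h level by 0.35 ± 0.111 (adjusted p = 0.0191), which missed the threshold without IUB288 4 h replicate 6 (0.29, adjusted p = 0.0502). Its 4 h change was 0.28 (adjusted p = 0.0772) without those 4 livers. Factor X, F10, lies 1.5 kb downstream of F7 on chromosome 8 and is the protease that cuts prothrombin. It rose by 0.42 at 22 h (adjusted p = 0.000397) and by 0.31 at 4 h (adjusted p = 0.0036), the second of which was 0.22 (adjusted p = 0.0528) without those 4 livers. In the fit of all livers used throughout, factors IX and XI did not pass in any comparison, with fold changes of F9 between 0.03 and 0.10. F11 was at -0.30 at 4 h over vehicle (adjusted p = 0.0706), and this passed without IUB288 22 h replicate 6, vehicle replicate 1 or vehicle replicate 2 (adjusted p = 0.0307, 0.0401 and 0.0457), without the 3 livers (-0.40, adjusted p = 0.0335) and without the 4 (-0.48, adjusted p = 0.0115). Its 22 h over 4 h fold change of 0.33 (adjusted p = 0.0624) passed without IUB288 22 h replicate 3, 5 or 8 or vehicle replicate 4, with adjusted p between 0.0315 and 0.0492, and without the 4 livers (adjusted p = 0.0441). With all livers, the 4 h change of F11 passed with column totals, library quality weights and a replicate block (adjusted p = 0.0221, 0.00708 and 0.0475). The 22 h over 4 h change of F11 passed with column totals, a replicate block and a filter at a mean of 1 CPM (adjusted p = 0.0253, 0.0419 and 0.0453). With only the 16 libraries compared both passed (adjusted p = 0.0173 and 0.0463).

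Of the cofactors and subunits, factor V rose while the B subunit of factor XIII fell. Factor V, F5, the cofactor of factor X, had 1572, 1985 and 2208 CPM at 22 h, 1946, 2024 and 2140 CPM at 4 h, and 953.4, 1587 and 1838 CPM in vehicle. All IUB288 4 h livers lay above all vehicle livers, and the 22 h livers overlapped them. The log2 fold change was 0.41 ± 0.0981 at 22 h (adjusted p = 0.00225) and 0.48 ± 0.0982 at 4 h (adjusted p = 0.000288), with -0.07 between the IUB288 groups. Without the 4 livers that stand apart it was 0.23 at 22 h (adjusted p = 0.0136) and 0.30 at 4 h (adjusted p = 0.00146), still called. F13b, the carrier subunit of factor XIII, stood at 210.5, 234.4 and 270.5 CPM at 22 h and 220.8, 243 and 274.2 CPM at 4 h, against 268.4, 351 and 428.2 CPM in vehicle. Only the lowest vehicle liver reached into the range of the treated ones. The fold change of F13b was -0.54 ± 0.0783 at 22 h (adjusted p = 9.62e-06) and -0.48 ± 0.0783 at 4 h (adjusted p = 1.64e-05).

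F8 was the 1 gene of the 37 that was lower at 22 h than at 4 h. Factor VIII is the cofactor of factor IX. F8 had 13.3, 34.57 and 51.76 CPM at 22 h, 42.06, 51.3 and 58.71 CPM at 4 h, and 24.24, 59.08 and 72.83 CPM in vehicle. The groups overlapped. The SD was 15.1 CPM at 22 h, 5 CPM at 4 h and 15.9 CPM in vehicle. Relative to its mean, the 22 h group was spread most widely, at 44.5%, against 9.74% at 4 h and 28.8% in vehicle. The log2 fold change was -0.79 ± 0.248 at 22 h over vehicle (adjusted p = 0.0153), -0.03 at 4 h over vehicle (adjusted p = 0.929) and -0.76 ± 0.248 for 22 h over 4 h (adjusted p = 0.0225). The lowest levels, 14.33 and 13.3 CPM, were those of IUB288 22 h replicates 6 and 7, and without either the difference between 22 h and 4 h was -0.59 (adjusted p = 0.0635 without replicate 6 and 0.0609 without replicate 7). Replicates 1 to 4 alone gave -0.17 over vehicle (adjusted p = 0.741), the weakest of the alternative fits, which ranged down to -1.41. Replicates 5 to 8 held 27.87, 14.33, 13.3 and 48.74 CPM at 22 h, against 61.21, 56.95, 53.1 and 67.38 CPM in vehicle. The sum of 10 endothelial markers was 181.4, 351.7 and 431.5 CPM at 22 h, 388, 404 and 464.5 CPM at 4 h, and 377, 584.2 and 678.6 CPM in vehicle. It was lowest in the same livers, 187.5 and 181.4 CPM in IUB288 22 h replicates 6 and 7. Among vehicle livers, replicate 2 had the lowest F8, 24.24 CPM, and the lowest endothelial sum, 377 CPM. The part of endothelial RNA in the F8 result was not tested.

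The contact system genes did not pass against vehicle in the fit of all livers used throughout. Kininogen, Kng1, the precursor of bradykinin, had fold changes of 0.06 at 22 h and -0.12 at 4 h. Without vehicle replicate 1 its 4 h change (-0.18, adjusted p = 0.0377) and its 22 h over 4 h difference (0.19, adjusted p = 0.0399) passed, as they did without all 4 livers that stand apart (-0.26, adjusted p = 0.00856, and 0.21, adjusted p = 0.0167). The 4 h change also passed with library quality weights (adjusted p = 0.0195). The difference also passed with column totals, with only the 16 libraries compared and in replicates 5 to 8 alone (adjusted p = 0.0314, 0.0301 and 0.0464). Plasma prekallikrein, Klkb1, had 239.8, 338.4 and 452.8 CPM at 22 h, 208, 238.5 and 298.3 CPM at 4 h, and 222.6, 273.1 and 347.5 CPM in vehicle. The 3 groups overlapped, with the vehicle median between those of the IUB288 groups. Klkb1 was higher at 22 h than at 4 h by 0.44 ± 0.116 (adjusted p = 0.00463), with 0.24 at 22 h (adjusted p = 0.114) and -0.20 at 4 h (adjusted p = 0.153) over vehicle. The 22 h change over vehicle passed without IUB288 22 h replicate 5 (0.31, adjusted p = 0.0357). The 4 h change passed without the 3 livers high in mitochondrial genes (-0.32, adjusted p = 0.0418) and without the 4 livers (-0.38, adjusted p = 0.0152). With all livers it passed with column totals (-0.26, adjusted p = 0.0309) and library quality weights (-0.31, adjusted p = 0.00925). Of the 75-base windows of the longest coding transcript, 10.6% of Kng1 also occur in Kng2. In Klkb1 42.4% also occur in the overlapping model Gm45753, so its counts depend on how shared reads were assigned.

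Protein C is an anticoagulant protease that inactivates factors V and VIII, and protein S is its cofactor. Proc did not pass, at 0.18 at 22 h (adjusted p = 0.132) and 0.03 at 4 h. Pros1 had 155.1, 175.1 and 212.3 CPM at 22 h, 179.5, 190.1 and 207 CPM at 4 h, and 125, 165.5 and 174.7 CPM in vehicle. All IUB288 4 h livers lay above all vehicle livers, with a fold change of 0.26 ± 0.0669 (adjusted p = 0.0026), while at 22 h the fold change of 0.14 did not pass (adjusted p = 0.109).

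All 3 genes grouped with fibrinolysis were higher at 22 h. Habp2 encodes a protease that activates factor VII and urokinase and cuts fibrinogen. It had 230.2, 251.2 and 280.5 CPM at 22 h and 224.2, 240.7 and 263.1 CPM at 4 h, against 132.6, 164.9 and 190.8 CPM in vehicle. Treated and vehicle livers did not overlap at either time, and the fold changes were 0.62 ± 0.0617 at 22 h (adjusted p = 3.13e-08) and 0.55 ± 0.0615 at 4 h (adjusted p = 7.05e-08). Serpinf2, which encodes antiplasmin, the main inhibitor of plasmin, had 493.8, 544.7 and 697.5 CPM at 22 h, 303.1, 370.2 and 491.1 CPM at 4 h, and 290.6, 360.8 and 455.3 CPM in vehicle. The 22 h livers lay above all livers of both other groups, which overlapped each other. Serpinf2 was higher at 22 h by 0.65 ± 0.0996 over vehicle (adjusted p = 2e-05) and by 0.62 ± 0.0996 over 4 h (adjusted p = 2.31e-05), with 0.03 at 4 h over vehicle (adjusted p = 0.848). Plg, the plasmin precursor, was higher at 22 h by 0.24 (adjusted p = 0.0412), with 0.03 at 4 h. That call was lost without any 1 of 11 libraries, IUB288 22 h replicates 2 and 4 to 8 and vehicle replicates 1, 2, 3, 7 and 8, with adjusted p between 0.051 and 0.0908. Without the 3 livers high in mitochondrial genes the 22 h change of Plg was 0.18 (adjusted p = 0.151), and without these and vehicle replicate 1 it was 0.11 (adjusted p = 0.368). The 22 h over 4 h difference of Plg, 0.21 (adjusted p = 0.0944), passed without IUB288 22 h replicate 3 or IUB288 4 h replicate 4 (adjusted p = 0.0487 and 0.0394), and without the 4 livers (0.23, adjusted p = 0.0323). With all livers and column totals it passed as well (0.24, adjusted p = 0.0116).

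**Figure D4:**
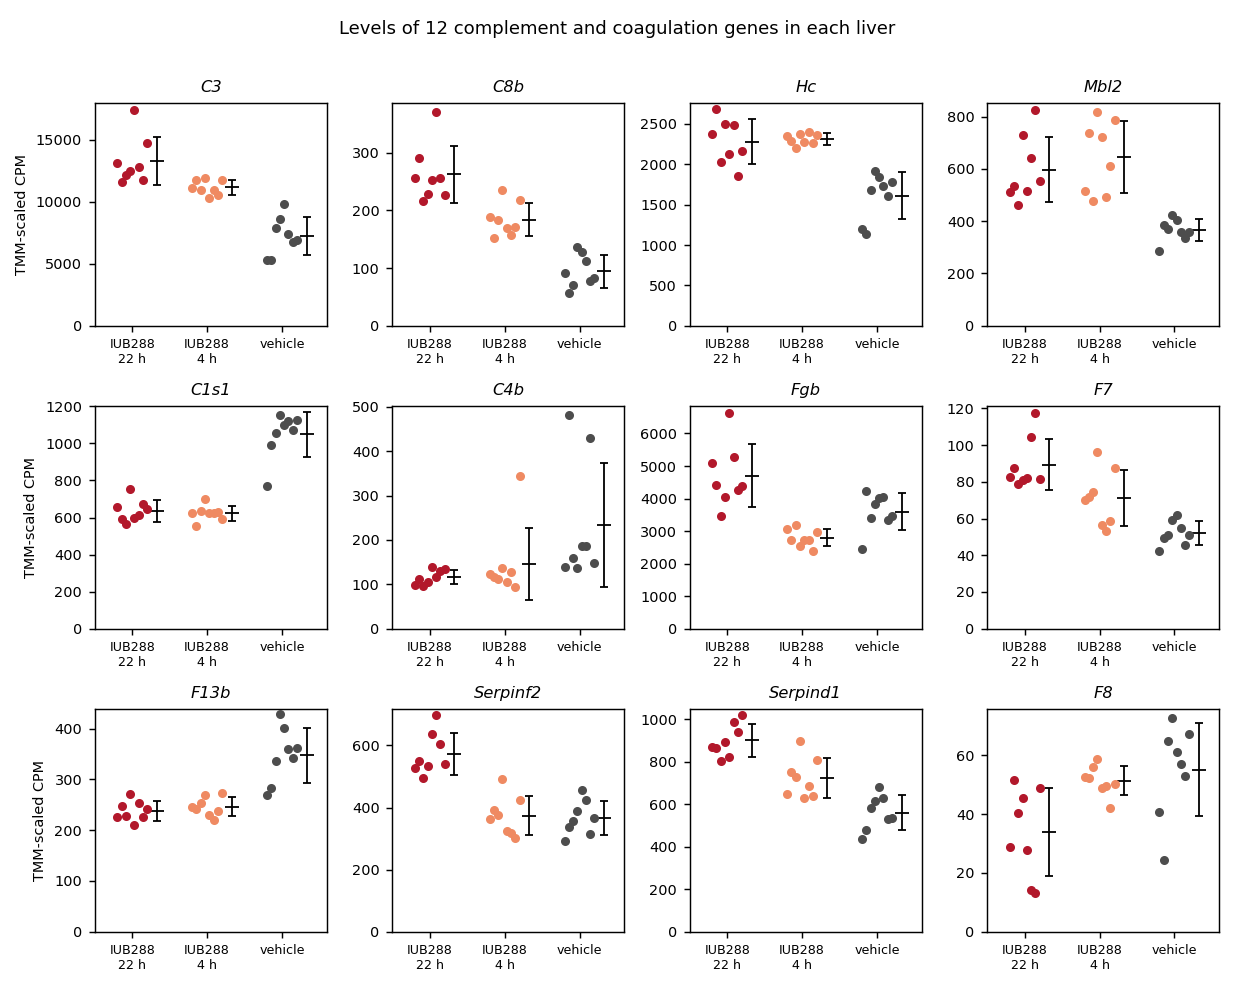
TMM-scaled CPM of 12 of the genes in each liver (points), in the IUB288 22 h, IUB288 4 h and vehicle groups, with the mean and SD of 8 livers beside the points; every axis starts at 0. C3, C8b and Mbl2 sit above vehicle at both times and C1s1 below it, Serpinf2 stands above at 22 h only and Fgb has its lowest median at 4 h, while C4b has 3 high livers.

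The 3 serpins that inhibit clotting and complement proteases were higher at both times in the fit of all 24 livers used throughout. Heparin cofactor II, Serpind1, a thrombin inhibitor, had 805.7, 883.2 and 1021 CPM at 22 h, 629.4, 707.9 and 899.6 CPM at 4 h, and 439.1, 559.8 and 681 CPM in vehicle. The 22 h livers all lay above the vehicle livers, and the 4 h livers lay between and overlapped both. Over vehicle the fold change was 0.69 ± 0.0857 at 22 h (adjusted p = 1.03e-06) and 0.37 ± 0.0851 at 4 h (adjusted p = 0.000934), and the 22 h level exceeded the 4 h level by 0.32 ± 0.0863 (adjusted p = 0.00585). Without the 4 livers that stand apart the 4 h change was 0.23 (adjusted p = 0.0343). Antithrombin, Serpinc1, rose by 0.33 at 22 h (adjusted p = 0.00102), with all 22 h livers above all vehicle livers, and by 0.22 at 4 h (adjusted p = 0.0136). Without the 3 livers high in mitochondrial genes its 4 h change was 0.20 (adjusted p = 0.0557), and without these and vehicle replicate 1 it was 0.13 (adjusted p = 0.132). The gene of C1 inhibitor, Serping1, which blocks C1r, C1s and kallikrein, rose by 0.33 at 22 h (adjusted p = 0.00156) and by 0.19 at 4 h (adjusted p = 0.0409). The 4 h call of Serping1 was lost without any 1 of 10 libraries, IUB288 4 h replicates 2, 3, 4 and 8 and vehicle replicates 1, 2, 3, 4, 7 and 8, with adjusted p between 0.0509 and 0.0948. It was 0.14 (adjusted p = 0.205) without the 3 livers and 0.09 (adjusted p = 0.399) without the 4.

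Complement can be started by lectins that bind sugars on microbes. Mbl2, a mannose-binding lectin, had 461.4, 545.4 and 825.8 CPM at 22 h and 475.6, 667.5 and 818.5 CPM at 4 h, against 287.3, 363.6 and 421.8 CPM in vehicle. Neither treated group overlapped vehicle. Mbl2 rose by 0.69 ± 0.124 at 22 h (adjusted p = 0.000129) and by 0.80 ± 0.125 at 4 h (adjusted p = 9.76e-06), and the IUB288 groups did not differ past the threshold (-0.11). Its relative Mbl1 had fold changes of -0.04 at 22 h and -0.09 at 4 h, neither called. Of the proteases that lectins carry, Masp1 did not pass in the fit of all livers used throughout (-0.18 at 22 h and -0.09 at 4 h). At 22 h it was called lower without the 3 livers high in mitochondrial genes and vehicle replicate 1 (-0.36, adjusted p = 0.0108), with library quality weights (-0.23, adjusted p = 0.0443) and in replicates 5 to 8 alone (-0.41, adjusted p = 0.0431). Masp2, which cuts C4 and C2, was lower at 4 h (-0.25, adjusted p = 0.0333) and at -0.02 at 22 h. The Masp2 call at 4 h was lost without any 1 of 9 libraries, IUB288 4 h replicates 1, 2, 5, 6 and 7 and vehicle replicates 2, 4, 5 and 7, with adjusted p between 0.0543 and 0.0722. Its 22 h over 4 h difference of 0.23 (adjusted p = 0.0695) passed without IUB288 22 h replicate 2 or 3, IUB288 4 h replicate 4 or 8, or vehicle replicate 1, with adjusted p between 0.0197 and 0.0483. It was 0.29 (adjusted p = 0.0208) without the 3 livers and 0.28 (adjusted p = 0.00809) without the 4. With all livers it passed with column totals, library quality weights and a replicate block (adjusted p = 0.0114, 0.0301 and 0.0432).

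The classical pathway genes measured here had no riser, and C1s1, C1ra and C4b were lower at both times. C1r and C1s are the proteases of the C1 complex, which antibodies activate. Their genes lie 6.9 kb apart on chromosome 6 and point towards each other, and the promoters are shown because both genes fell. C1s1 is at chr6:124542310-124542609 on the - strand, 1 of 2 starts listed, and C1ra at chr6:124512371-124512670 on the + strand, with capitals as for fibrinogen.
C1s1: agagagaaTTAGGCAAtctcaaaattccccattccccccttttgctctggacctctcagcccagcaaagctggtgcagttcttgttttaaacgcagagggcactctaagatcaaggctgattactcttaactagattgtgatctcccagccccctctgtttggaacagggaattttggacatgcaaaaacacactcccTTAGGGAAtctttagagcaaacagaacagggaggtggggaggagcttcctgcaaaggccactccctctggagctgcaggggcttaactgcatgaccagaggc
C1ra: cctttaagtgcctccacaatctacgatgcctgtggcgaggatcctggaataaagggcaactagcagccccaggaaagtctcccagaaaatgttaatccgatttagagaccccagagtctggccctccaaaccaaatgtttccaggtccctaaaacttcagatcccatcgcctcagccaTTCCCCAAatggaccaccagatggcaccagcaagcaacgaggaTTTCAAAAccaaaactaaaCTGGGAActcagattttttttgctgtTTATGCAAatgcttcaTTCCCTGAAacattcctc
C1s1 held 2 C/EBP matches, and C1ra held 3 C/EBP, 1 STAT3 and 1 interleukin 6 element match.

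C1s1 had 565.6, 629.7 and 754.1 CPM at 22 h and 553.9, 624.4 and 701 CPM at 4 h, against 772, 1084 and 1154 CPM in vehicle. No treated liver reached the lowest vehicle liver, which was vehicle replicate 1. The fold change of C1s1 was -0.72 ± 0.0715 at 22 h (adjusted p = 3.78e-08) and -0.75 ± 0.0714 at 4 h (adjusted p = 5e-09), and the IUB288 groups differed by 0.03 (adjusted p = 0.775; 95% confidence interval -0.11 to 0.18). C1ra had 164, 174.5 and 197.1 CPM at 22 h and 148.7, 159.2 and 192.9 CPM at 4 h, against 181.2, 220.4 and 261.7 CPM in vehicle, with some overlap. Its fold change was -0.32 ± 0.0672 at 22 h (adjusted p = 0.000658) and -0.43 ± 0.0671 at 4 h (adjusted p = 9.71e-06). Of 75-base windows, 14.7% of C1s1 are shared with its copy C1s2, and 42.4% of C1ra are shared with other genes, 40.1% with C1rb, so the split of reads between copies is uncertain.

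C2 and C4b, which form the classical C3 convertase, and Cfb, the protease of the alternative one, lie on chromosome 17 in the histocompatibility region. C4b had 96.14, 114.1 and 138.7 CPM at 22 h, 93.18, 120.1 and 343.7 CPM at 4 h, and 137.4, 172.8 and 481.5 CPM in vehicle. The 3 livers high in mitochondrial genes held 343.7 to 481.5 CPM and the other 21 held 93.18 to 187.3 CPM. With all 24 livers the fold change of C4b was -0.84 ± 0.253 at 22 h (adjusted p = 0.0112) and -0.64 ± 0.253 at 4 h (adjusted p = 0.0423). Without those 3 livers it was -0.46 at 22 h and -0.45 at 4 h, with an adjusted p of 0.00135 in both. The 4 h call was lost without any 1 of 10 libraries, IUB288 4 h replicates 1 to 7 and vehicle replicates 2, 5 and 7, with adjusted p between 0.0504 and 0.106. Cfb had 71.77, 83.33 and 116.1 CPM at 22 h, 74.95, 93.37 and 275.4 CPM at 4 h, and 89.39, 106.4 and 364.1 CPM in vehicle. The groups overlapped, and the highest level in each of the 4 h and vehicle groups was that of a liver high in mitochondrial genes. Its fold changes of -0.64 at 22 h (adjusted p = 0.0661) and -0.37 at 4 h (adjusted p = 0.275) did not pass, and without the 3 livers they were -0.22 and -0.15, also not called. The 22 h change of Cfb passed without IUB288 4 h replicate 8, vehicle replicate 1 or vehicle replicate 8 (adjusted p = 0.0331, 0.0428 and 0.0444). C2 was not called in any comparison, and its median was 5.006 CPM at 22 h, 5.15 CPM at 4 h and 4.975 CPM in vehicle. What sets these 3 livers apart was not tested. Reads of C2 and Cfb can also fall in the overlapping model Gm20547, which shares 55.6% and 81.2% of their 75-base windows, and 23.5% of C4b windows are shared with C4a.

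C3, where all pathways meet, had the highest mean CPM of the 37 genes, not corrected for length. It had 11610, 12660 and 17390 CPM at 22 h and 10300, 11030 and 11940 CPM at 4 h, against 5291, 7142 and 9816 CPM in vehicle. No treated liver fell to the vehicle range. Its mean level was 1.85-fold that of vehicle at 22 h (0.89 ± 0.106, adjusted p = 5.54e-07) and 1.57-fold at 4 h (0.65 ± 0.105, adjusted p = 1.59e-05) in the model. The 22 h over 4 h difference of 0.24 did not pass in the fit of all livers used throughout (adjusted p = 0.0989). It passed without the 4 livers that stand apart (0.24, adjusted p = 0.0309). With all livers it passed with column totals (0.27, adjusted p = 0.0495) and library quality weights (0.24, adjusted p = 0.0328). With only the 16 libraries compared it was 0.255 (adjusted p = 0.0155).

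C5, encoded by Hc, begins the membrane attack complex. Hc had 1852, 2268 and 2684 CPM at 22 h and 2196, 2320 and 2401 CPM at 4 h, against 1138, 1705 and 1921 CPM in vehicle. All IUB288 4 h livers lay above all vehicle livers, and the 22 h group overlapped vehicle at its low end. The fold change was 0.51 ± 0.0947 at 22 h (adjusted p = 0.000203) and 0.54 ± 0.0947 at 4 h (adjusted p = 4.8e-05). At 22 h it was 0.34 without the 4 livers that stand apart (adjusted p = 0.00115). C6 and C9, which bind after C5, were not called in any comparison, and C6 and C9 fold changes over vehicle lay between -0.08 and 0.07.

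C8 is a complex of alpha, beta and gamma chains, and 2 of its genes, C8a and C8b, were measured. They lie 11.1 kb apart on chromosome 4 with their starts at the far ends. Both promoters are shown because 1 gene of this pair rose and the other was not called: C8b at chr4:104766067-104766366 on the + strand and C8a at chr4:104876349-104876648 on the - strand, with capitals as above.
C8b: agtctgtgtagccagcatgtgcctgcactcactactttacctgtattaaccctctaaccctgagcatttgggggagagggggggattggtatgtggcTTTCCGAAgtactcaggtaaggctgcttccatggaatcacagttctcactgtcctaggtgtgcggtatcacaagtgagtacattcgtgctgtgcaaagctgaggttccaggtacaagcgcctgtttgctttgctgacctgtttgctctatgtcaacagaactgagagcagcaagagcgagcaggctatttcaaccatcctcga
C8a: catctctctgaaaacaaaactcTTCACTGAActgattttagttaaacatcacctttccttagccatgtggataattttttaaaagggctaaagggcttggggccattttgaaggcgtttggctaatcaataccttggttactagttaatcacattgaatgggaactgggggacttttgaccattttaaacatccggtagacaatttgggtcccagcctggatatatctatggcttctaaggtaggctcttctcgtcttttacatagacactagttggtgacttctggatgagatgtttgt
C8b held 1 C/EBP match and C8a 1 STAT3 match. Of the 37 genes 28 had a RefSeq promoter entry, of which 19 held the C/EBP, 7 the STAT3 and 5 the interleukin 6 motif at any start listed. The shares of all promoters count single windows, so a gene with several starts has more chances of a match. A full cAMP response element, TGACGTCA, was in 0 of the 28 and in 1.79% of all promoters. Its short form TGACG, which overlaps the full one, was in 5 of the 28 (F2, F9, F13b, Masp2 and C4bp) and in 20.8% of all. CAAAGTCCA (HNF4) was in 0 of the 28, beside 0.475% of all.

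C8b had the highest fold change of the 37 genes over vehicle at both times. It had 216.1, 253.7 and 370.5 CPM at 22 h and 152.8, 176.4 and 235.5 CPM at 4 h, against 57.08, 86.7 and 136.9 CPM in vehicle. All treated livers lay above all vehicle livers, and the 2 treated groups overlapped. The level was 2.84-fold that of vehicle at 22 h (1.50 ± 0.149, adjusted p = 3.22e-08) and 2-fold at 4 h (1.00 ± 0.148, adjusted p = 4.83e-06), and the 22 h level exceeded the 4 h level by 0.50 ± 0.148 (adjusted p = 0.0113). C8a had 540.9, 796.6 and 1164 CPM at 22 h, 551.2, 722 and 791.3 CPM at 4 h, and 524.6, 681.6 and 914.2 CPM in vehicle. It was not called, with 0.13 at 22 h (95% confidence interval -0.17 to 0.43) and -0.01 at 4 h (-0.31 to 0.28). Within groups, r between C8a and C8b was 0.76 at 22 h, -0.20 at 4 h and 0.70 in vehicle over 8 livers (adjusted p = 0.0271, 0.69 and 0.07, exact permutation test). Spearman's rho was 0.74, 0.02 and 0.86 (adjusted p = 0.0687, 0.977 and 0.0241, exact permutation test), and without the 2 livers farthest in C8a r was 0.50, 0.81 and 0.98. At 4 h no relation was seen over all 8 livers, and the value of r depended on those 2 livers.

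The soluble regulators were not called in the fit of all livers used throughout. Factor I, Cfi, which cuts C3b and C4b, had 611.4, 737.6 and 794.7 CPM at 22 h, 678.3, 728.1 and 807.8 CPM at 4 h, and 588.6, 815.3 and 934.5 CPM in vehicle. Its fold change was -0.15 at 22 h (adjusted p = 0.127) and -0.12 at 4 h (adjusted p = 0.204). With all livers and column totals, Cfi was called lower at 22 h (-0.17, adjusted p = 0.0437) and at 4 h (-0.17, adjusted p = 0.0334). Library quality weights also gave calls at 22 h (-0.24, adjusted p = 0.00308) and at 4 h (-0.19, adjusted p = 0.00597). Vehicle replicate 1 was the lowest vehicle liver, and without it Cfi was lower at both times, at -0.21 at 22 h (adjusted p = 0.00985) and -0.18 at 4 h (adjusted p = 0.0201). Without the 3 livers high in mitochondrial genes as well, Cfi was at -0.27 at 22 h (adjusted p = 0.0017) and -0.25 at 4 h (adjusted p = 0.0025). C4bp, a cofactor of factor I, had fold changes of 0.11 at 22 h and 0.08 at 4 h, neither called.

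Without vehicle replicate 1, the counts of changed genes were 14 higher and 7 lower at 22 h and 11 higher and 10 lower at 4 h. Without the 3 livers high in mitochondrial genes they were 14 higher and 5 lower at 22 h and 10 higher and 8 lower at 4 h. Without all 4 livers they were 13 higher and 7 lower at 22 h and 8 higher and 11 lower at 4 h, and 12 higher and 1 lower between the IUB288 groups. The shares of all genes called in these fits are not given here, so the counts are not read as particular to the 37 genes.

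Other genes of the same systems, outside the 37, are given beside the shares over all genes tested, 17.6% higher and 19.2% lower at 22 h and 21.7% higher and 22.5% lower at 4 h. Of 22 further clotting and fibrinolysis genes tested, 3 rose (13.6%) and 12 fell (54.5%) at 22 h, and 0 rose and 10 fell (45.5%) at 4 h. Among them Tfpi2, an inhibitor of serine proteases, fell to 65.57 CPM at 22 h and 72.49 CPM at 4 h, against 127.9 CPM in vehicle, with fold changes of -0.96 and -0.82. Vwf, the endothelial carrier of factor VIII, was at -1.04 at 22 h (adjusted p = 5.32e-05) and -0.37 at 4 h (adjusted p = 0.0603). F3, which encodes tissue factor, was lower at 4 h (-0.92, adjusted p = 0.00147) and not called at 22 h (-0.25). Kng2, the relative of Kng1, rose at 22 h (0.31, adjusted p = 0.000527) and was at 0.07 at 4 h. The part of endothelial and other non-hepatocyte RNA in these falls was not tested.

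Of 26 further complement genes tested, 4 rose (15.4%) and 13 fell (50%) at 22 h, and 3 rose and 8 fell (30.8%) at 4 h. Vitronectin, Vtn, and clusterin, Clu, which keep the terminal complex out of membranes, rose at both times, by 0.62 and 0.48 at 22 h and by 0.49 and 0.34 at 4 h. C1qa and C1qb, the C1q chains that macrophages make, were lower at 22 h (-0.87 and -1.02) and at 4 h (-0.61 and -0.68), as were 7 and 3 of 11 Kupffer cell markers, a list that includes them.

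**Figure D5:**
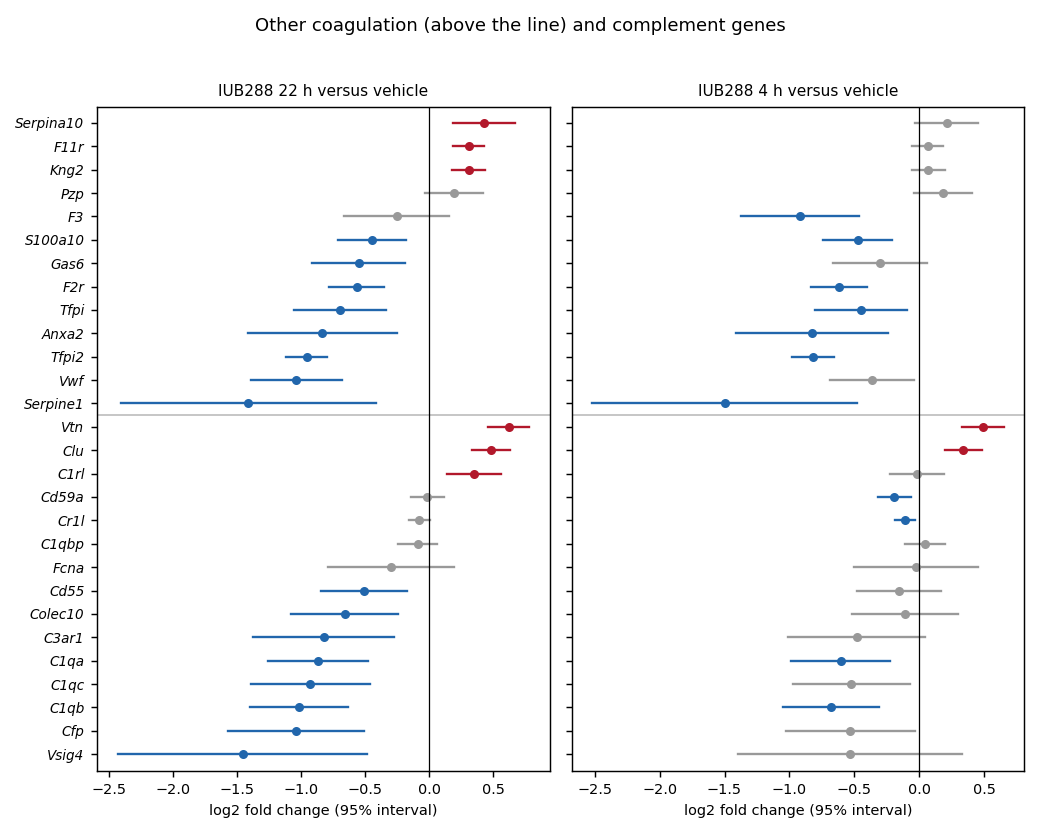
Fold changes on a log2 scale with 95% confidence intervals for 28 other genes of clotting and fibrinolysis (above the line) and complement (below it) with at least 10 CPM in vehicle, for IUB288 22 h over vehicle and IUB288 4 h over vehicle; red is higher, blue lower and grey not called. Vtn and Clu lie to the right in both comparisons, and Tfpi2, F2r and C1qb to the left.

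Genes known to act on liver plasma proteins were read beside the 37. The shares over all genes tested were 17.6% higher and 19.2% lower at 22 h, and 21.7% higher and 22.5% lower at 4 h. Of 19 hepatocyte transcription factors tested, 5 rose (26.3%) and 3 fell (15.8%) at 22 h. At 4 h, 6 rose (31.6%) and 8 fell (42.1%). Hnf4a, which binds many clotting factor promoters, had a mean of 969 CPM at 22 h and 857.2 CPM at 4 h, against 577.7 CPM in vehicle, with fold changes of 0.75 (adjusted p = 1.18e-07) and 0.56 (adjusted p = 2.86e-06). Foxa3 rose by 0.84 at 22 h and 0.83 at 4 h. Cebpa was lower at 4 h (-0.51, adjusted p = 1.24e-06) and at 0.06 at 22 h, and Cebpb was higher at 4 h (0.78, adjusted p = 0.000358) and at -0.07 at 22 h. Of 11 genes of interleukin 6 and STAT3 signalling, 5 rose and 1 fell at 22 h, and 2 rose and 3 fell at 4 h; Stat3 itself rose by 0.35 and 0.53. Of 6 genes of vitamin K use and factor secretion, 1 rose and 1 fell at 22 h, and 2 rose and 1 fell at 4 h, with Mcfd2, which helps carry factors V and VIII out of the cell, up by 0.45 and 0.29.

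Acute phase genes, many of them induced with fibrinogen and C3 in inflammation, went both ways. Of 20 tested, 7 rose (35%) and 6 fell (30%) at 22 h, and 6 rose (30%) and 7 fell (35%) at 4 h. The shares over all genes are those just given. Hemopexin, Hpx, rose by 0.83 at both times, and haptoglobin, Hp, by 0.43 at 22 h and 0.32 at 4 h. Serum amyloid Saa1 was lower at 22 h (-1.16, adjusted p = 0.00204) and at 4 h (-0.73, adjusted p = 0.0342), and ceruloplasmin, Cp, likewise (-0.81 and -0.56). Of 26 other secreted liver proteins, 14 rose (53.8%) and 4 fell (15.4%) at each time. Serpina6 rose by 1.66 and 0.93 at 22 h and 4 h, while Alb was at -0.58 and -0.38.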

How the data were processed

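The table held deposited counts of reads per gene, for 22355 genes in 24 liver libraries of 8 mice a group. The unit check could not read its layout as counts, so the values carry the unit other, although all 536520 deposited values were whole and none was negative. The submitters' processing notes name cutadapt, GSNAP and the build GRCm38; their versions, the counting tool and whether strand was used are not given in the sources used here. The labels give the group and replicate number of each mouse, and p-values measure the spread between these mice.

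Genes were kept with CPM matching a count of at least 10 in 8 libraries and a total of 15, which left 11508 genes with 99.92% of counts. TMM factors (0.897 to 1.06) were computed in R 4.3.3, and log2 values, their precision weights (voom, offset 0.5) and tests came from limma 3.58.1, with 3 group means in 1 model, 21 residual and 4.08 prior degrees of freedom, and Benjamini-Hochberg adjustment over all genes tested at a threshold of 0.05. The fitting steps were tested on simulated data. Fold changes are log2, the first group named over the second. Python 3.11.15, numpy 2.4.6, scipy 1.17.1 and matplotlib 3.10.9 served for sequences, exact permutation tests and plots. Gene positions and promoters came from RefSeq GRCm38.p6 and shared 75-base windows from GENCODE transcripts.

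The 37 genes, the other gene lists and the tests were chosen with earlier results of these data known. Full ranges are given for the genes with the 10 smallest p among those called in a comparison and for the largest fold change of each role; others were given by fold change, and C2, Cfb and C8a also by levels, chosen after their values were seen. Outside the 37, up to 6 genes a list were eligible, those called, at 1 CPM or more, with the lowest p.

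Alternatives changed the scaling, the filter, the weights, the libraries in the model, a replicate term and single libraries left out. Replicate numbers did not pair mice: deviations of 24 same-numbered pairs correlated at -0.316 to 0.215, median 0.00972. No library was a copy of another (chi-square per degree of freedom of 20.8 to 357 over 84 pairs within groups). Counts from 24.7 M to 35.2 M in treated livers, and from 13.99 M to 44.1 M in vehicle, limit the precision of low genes such as C2. Some genes of these systems are not reported here.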

Additional observations from a re-analysis of the deposited data

Results flagged for a closer look

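Of 111 sets of 8 livers (37 genes in 3 groups), 9 had a liver far from the others by Dixon's criterion, which chance alone meets in about 1 of 20 sets. Of these, 5 were vehicle replicate 1, the liver that also held Ucp1 RNA, and each was low: F2 at 917.7 CPM, Serpinc1 at 1131 CPM, Masp2 at 52.55 CPM, C1s1 at 772 CPM and C9 at 522.5 CPM. Another 3 were IUB288 4 h replicate 8, which was high in mitochondrial genes as well, with C2 at 20.81 CPM, C4b at 343.7 CPM and Cfb at 275.4 CPM. The last was Masp1 in IUB288 22 h replicate 7, low at 93.96 CPM, a liver that also had the lowest F8 and the lowest endothelial marker sum. Causes were not tested.

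For 8 of the 37 genes (21.6%) the change over vehicle differed between 22 h and 4 h, where 29.3% of all genes tested differed. The test is the limma-voom comparison of the IUB288 groups given above (adjusted p under 0.05), because both changes use the same vehicle livers. No vehicle group was sampled at 4 h. The difference, 22 h minus 4 h on the log2 scale, was 0.73 for Fgb, 0.52 for Fga, 0.62 for Serpinf2, 0.50 for C8b, 0.44 for Klkb1, 0.35 for F7, 0.32 for Serpind1 and -0.76 for F8. Fgb was higher than vehicle at 22 h and lower at 4 h, Fga was called against vehicle only at 4 h, and for Klkb1 neither change over vehicle was called.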

How the results depend on the processing

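No called gene changed direction under any alternative, and signs of uncalled values were not read. Of the changed genes, 19 of 20 at 22 h, 15 of 19 at 4 h and 6 of 8 between the IUB288 groups were called in all 24 fits that left out 1 library. In every alternative, smaller groups included, 8, 8 and 2 were called. Leaving out 1 library gave 19 to 21 changed genes at 22 h (14 to 16 higher, 5 to 7 lower), 15 to 21 at 4 h (11 to 12 higher, 4 to 10 lower) and 7 to 11 between the IUB288 groups (6 to 10 higher, 0 to 1 lower). At 22 h, replicates 1 to 4 alone gave 8 (7 higher, 1 lower). At 4 h, lower genes numbered 4 with no filter on low counts, 11 with library quality weights, 2 with replicates 1 to 4 alone and 11 without the 3 mitochondria-high livers and vehicle replicate 1; replicates 5 to 8 alone gave 11 changed, 6 of them higher. Between the IUB288 groups, column totals gave 14 (13 higher), only the 16 libraries compared gave 11 higher, and replicates 1 to 4 alone gave 2, with 2 higher and 0 lower. Replicates 5 to 8 alone gave 14 (12 higher, 2 lower), and leaving out the 4 livers gave 13 (12 higher). Fits on replicates 1 to 4 or 5 to 8 hold fewer mice a group; the causes were not otherwise tested. Leaving out the 3 or 4 livers together was chosen after seeing the data. The replicate numbers did not pair mice (6 of 24 libraries correlated best with their own number). With a replicate block, 20 genes changed at 22 h (15 higher, 5 lower), 18 at 4 h (11 higher, 7 lower) and 10 between the IUB288 groups (9 higher, 1 lower). Shares over all genes are not given here for the alternative fits. Planned fits with edgeR and DESeq2 were not run, because the unit check did not accept the table as counts. Depth limits C2, the gene with the lowest mean, 6.86 CPM.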

Other observations

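The 3 livers high in mitochondrial genes (IUB288 4 h replicate 8 and vehicle replicates 2 and 7) were also the highest of all 24 in class I histocompatibility genes. H2-K1 stood at 134.8 to 293.5 CPM in them, against 8.845 to 48 CPM in the other 21, and H2-D1 at 75.19 to 171.7 CPM, against 1.016 to 27.17 CPM. C2 stood at 16 to 22.42 CPM in the 3, against 2.333 to 9.074 CPM in the other 21. These genes were chosen after their values were seen. The same 3 livers were the 3 highest for 167 of the 11508 genes tested (1.45%). On chromosome 17, where C2, C4b and Cfb lie, they were for 50 of 509 (9.82%), and on the mitochondrial chromosome for 7 of 20 (35.0%). The livers were picked by a sum of mitochondrial genes, and chromosome 17 was counted because C2, C4b and Cfb lie there. Neither share is therefore independent of how the livers and genes were chosen. What the 3 livers share was not tested.

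Neighbouring members differed in how closely their levels went together across the 8 livers of a group. F11 and Klkb1, 4.63 kb apart on chromosome 8, correlated at r = 0.84 at 22 h, 0.11 at 4 h and 0.91 in vehicle (adjusted p = 0.0156, 0.78 and 0.00733, exact permutation test over 18 relations). Spearman's rho was 0.88, 0.05 and 0.88 (adjusted p = 0.0186, 0.977 and 0.0186), and r without the 2 livers farthest from the median of F11 was 0.89, -0.33 and 0.95. The difference in r between groups was not tested, and neither were pairs of genes that are not neighbours.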
